A study of Mus musculus with 12 samples.

Results

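Angiotensin II (Ang-II) hypertension was compared with naive controls in RNA-seq libraries of sorted bone marrow cells. The comparison took the 3 libraries labelled hypertension and the 3 labelled control, 6 of the 12 libraries of the series, and covered 15999 genes with enough counts out of 55421 in the count table. Hypertensive and control mice were C57BL/6J of 20 weeks, and each library came from 1 mouse. Hypertension was induced by infusing Ang-II from subcutaneous osmotic minipumps for 8 weeks, whereas the controls were labelled naive, with no sham pump named for them, so that pump implantation and infused peptide cannot be told apart. The other libraries came from *Apoe*-/- mice with atherosclerosis and from C57BL/6J mice labelled day 2 after myocardial infarction (MI). Per the paper's methods, atherosclerotic *Apoe*-/- mice received a western-type diet, so that genotype and diet cannot be told apart in that group. For the MI mice of its RNA-seq, the paper gives a later day. These libraries, all from mice of 20 weeks and with 3 in each group, entered the fit to share the estimate of spread. Cells were sorted, after magnetic depletion of lineage-positive cells, as TER-119- CD41- CD45- SCA-1+ with high CD31, the gate for bone marrow endothelial cells.

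Ang-II is the effector peptide of the renin-angiotensin system. It constricts vessels through the type 1 receptor, drives aldosterone release and stimulates inflammation and fibrosis in the vessel wall. In the marrow, endothelial cells line the sinusoids through which blood cells leave, and close to them erythroblasts mature around macrophages into red cells. During that maturation the cells build heme and a spectrin-based membrane skeleton, and then remove organelles and most proteins by ubiquitin-dependent decay and autophagy.

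The libraries held 18182805 to 25136936 counts in the controls and 19423115 to 22767897 in hypertension, so that 3 counts, taken as the floor of detection, corresponded to 0.116 to 0.168 CPM (the count per library, scaled to a common library size). Pearson's r of log CPM between the 6 libraries lay between 0.973 and 0.988. Within hypertension, replicate 4 differed most from its group, with chi-square values per gene of 81.4 and 67.5 against replicates 2 and 3, which differed from each other by 20.0. Defining genes of the gate were low. *Cdh5* (VE-cadherin), which marks endothelial cells, was measured at 3.08, 2.71 and 4.19 CPM in control replicates 2, 3 and 4 and at 2.00, 2.98 and 2.60 CPM in hypertension replicates 2, 3 and 4, the order used for all values that follow. *Ly6a*, which encodes SCA-1, stood at 15, 11.3 and 16.1 CPM against 12.3, 8.23 and 5.16 CPM, and *Ptprc*, which encodes the CD45 that the gate excludes, at 559, 724 and 618 CPM against 508, 585 and 529 CPM. The 26 endothelial markers summed to 200 to 359 CPM in the controls and 216 to 251 CPM in hypertension, whereas the 20 erythroid markers summed to 19847 to 32973 CPM against 21293 to 28887 CPM and the 18 neutrophil markers to 59675 to 82228 CPM against 37988 to 54998 CPM. Hematopoietic transcripts therefore outweighed endothelial ones in every library of the comparison, and the values below describe the sorted material as a whole. In such bulk material, fewer cells of a type and less RNA per cell cannot be told apart.

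**Figure D1:**
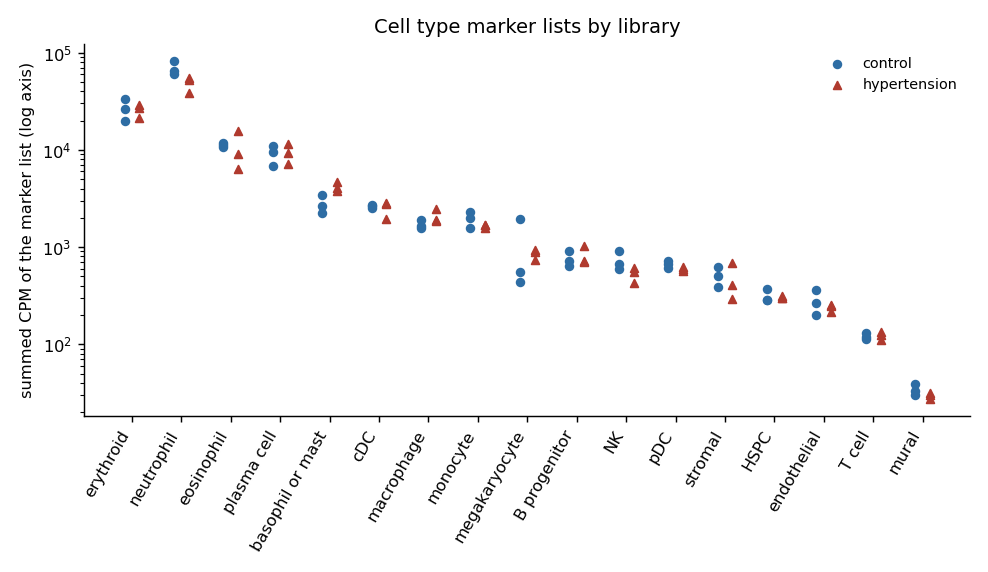
Summed CPM of each cell type marker list (log axis) in the 3 control libraries (circles) and the 3 hypertension libraries (triangles). Neutrophil lists (37988 to 82228 CPM) and erythroid lists (19847 to 32973 CPM) lay far above the endothelial list (200 to 359 CPM). The neutrophil sums of the groups did not overlap and were lower in hypertension. The basophil or mast sums did not overlap either and were higher in hypertension (2218 to 3407 CPM against 3737 to 4636 CPM). *Prss34* made up most of these sums, and 7 of the 14 tested members were higher and 7 lower.

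To ask which genes differed with hypertension, edgeR's quasi-likelihood test was fitted to the counts of all genes. No gene passed an adjusted p of 0.05 in either direction (0 higher and 0 lower, 0% of genes tested), and the smallest adjusted p was 0.951. The likelihood-ratio test and DESeq2 also called 0 genes in each direction, with smallest adjusted p-values of 0.399 and 0.193. With each gene of at least 1 count kept, the quasi-likelihood test called 115 genes higher and 55 lower, of which 64 were immunoglobulin genes and 39 had most of their counts (over 50%) in 1 library, while the likelihood-ratio test on the same genes called 0. At an unadjusted p under 0.05, 333 genes were higher in hypertension (2.08% of genes tested) and 261 were lower (1.63%), 3.71% together. Without hypertension replicate 4 these counts were 136 and 102, and without control replicate 3 they were 152 and 153. The 3 hypertension libraries all lay above the 3 control libraries for 1443 genes (9.02%) and all below for 1249 genes (7.81%). For a single gene in 3 against 3 mice the smallest exact two-sided permutation p is 0.1, so that separation alone cannot pass 0.05. In the text below, higher and lower describe values, and none of the genes passed correction over all genes.

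**Figure D2:**
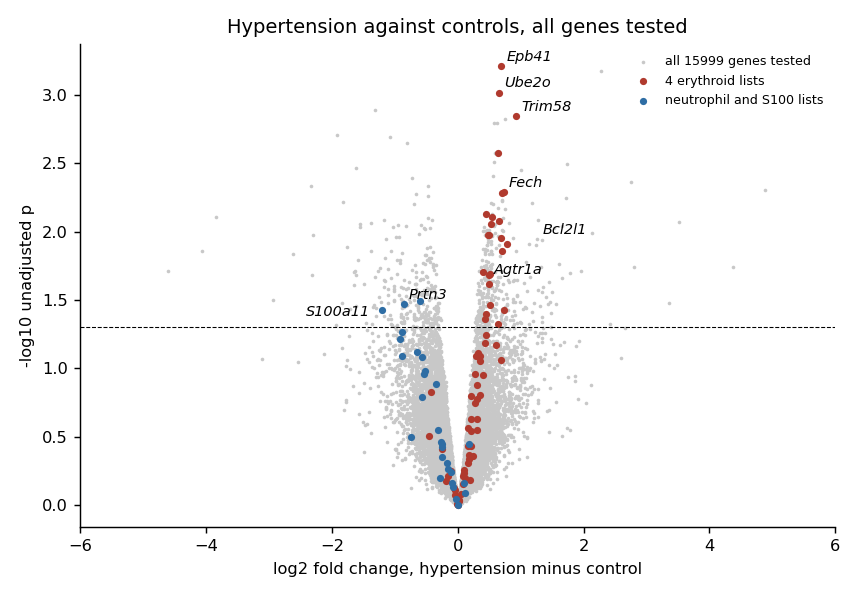
Log2 fold change, hypertension minus control (x axis), against -log10 of the unadjusted p (y axis) for each gene tested, with members of the remodeling, membrane, heme and transcription lists of erythroid cells in red and members of the neutrophil and S100 lists in blue. The dashed line marks an unadjusted p of 0.05, and *Epb41*, *Ube2o* and *Trim58* are the highest red points.

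The 12 genes with the smallest p among those higher in hypertension included 4 of the erythroid lists, which were chosen with earlier results of these data known. *Epb41*, which encodes protein 4.1 of the red cell membrane skeleton and lies on chromosome 4 (131923413-132075321, GRCm38), had the smallest p of all genes. Its level was 247, 229 and 253 CPM in the controls and 393, 346 and 439 CPM in hypertension, means of 243 ± 12.2 and 393 ± 46.8 (SD, n = 3 each). The groups did not overlap, and the log2 fold change was 0.69 ± 0.16 (SE; unadjusted p = 6.13e-04, adjusted p = 0.951, edgeR). *Ube2o*, a ubiquitin ligase that clears ribosomal proteins from reticulocytes, was measured at 69.8, 64.8 and 78.1 CPM against 99.9, 104 and 131 CPM (log2 fold change 0.65 ± 0.15, unadjusted p = 9.64e-04). *Trim58*, an erythroid ubiquitin ligase linked to enucleation, stood at 26.1, 25.4 and 32.5 CPM against 43.7, 44.7 and 71.2 CPM (0.92 ± 0.23, unadjusted p = 0.00142). *Xpo7*, a nuclear exporter used during erythroid nuclear condensation, stood at 236, 277 and 282 CPM against 363, 452 and 420 CPM (0.64 ± 0.17, unadjusted p = 0.00266). In all 4 genes the highest control library remained below the lowest hypertension library, and the unadjusted p stayed under 0.05 in each alternative analysis, leaving out any single library included.

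The other genes at the top of the higher group belonged to no erythroid list. *Dusp8*, a phosphatase of MAP kinases, was measured at 20.0, 19.5 and 20.4 CPM against 28.6, 26.8 and 45.3 CPM. *Cd82*, a tetraspanin, stood at 194, 209 and 210 CPM against 296, 274 and 345 CPM, a log2 fold change of 0.58 ± 0.15. *Tnk2*, a tyrosine kinase, stood at 38.8, 37.7 and 76.5 CPM in hypertension against 24.2, 25.4 and 26.7 CPM, with replicate 4 far above the others. *Siah1b*, a ubiquitin ligase, *Prcc* and 2310022B05Rik had log2 fold changes of 0.59, 0.57 and 0.62, with no overlap between groups. *Marc1* and 1700112D23Rik lay near the floor, the latter at 1, 4 and 6 counts against 13, 21 and 22 counts, and their log2 fold changes of 1.74 and 2.28 rest on few reads.

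Among the 12 genes with the smallest p in the lower group, 6 carried only predicted-gene or clone names. Gm42551 was measured at 1.01, 1.41 and 1.09 CPM against 0.454, 0.482 and 0.451 CPM (log2 fold change -1.32 ± 0.32, unadjusted p = 0.00129). B430010I23Rik, Gm43681, Gm36955 and Gm15987 had log2 fold changes of -1.92, -1.08, -1.82 and -0.70, and Gm1966 of -0.67. *Fcor*, a cofactor of Foxo1 known from fat cells, stood at 6.22, 5.14 and 5.43 CPM against 3.09, 3.07 and 3.40 CPM (-0.81 ± 0.22). *Cfl2*, the muscle form of the actin-severing protein cofilin, stood at 14.3, 13.6 and 17 CPM against 9.08, 9.02 and 9.11 CPM (-0.72 ± 0.21), and its 3 hypertension values were almost identical. *Tfec*, a transcription factor of the macrophage lineage, and *Dock10*, a guanine nucleotide exchange factor, were lower by smaller steps, with log2 fold changes of -0.47 and -0.48. *Igkv8-27* and *Igkv14-100* are variable genes of the kappa light chain and are described with the immunoglobulin genes.

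By annotation class, the lower group held more genes of uncertain coding status. Of the 724 tested transcripts annotated as still to be tested for coding (class TEC), 26 (3.59%) were lower and 2 (0.276%) higher at an unadjusted p under 0.05, and their median log2 fold change was -0.12. Of the 406 lincRNAs, 11 (2.71%) were lower and 4 (0.985%) higher at that threshold, against 1.63% and 2.08% of all genes. Protein-coding genes went the other way, with 299 of 12986 (2.30%) higher and 179 (1.38%) lower. Over all genes tested the median was -0.01.

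Genes of terminal red cell maturation stood out among the lists, whose choice with earlier results known leaves them without a test of their own. Of the 16 tested genes that remodel the maturing red cell (ubiquitin enzymes, autophagy and enucleation factors), 13 were higher in hypertension, where 48.1% of all genes were, and 9 of them were so at an unadjusted p under 0.05, against 2.08% of all genes. The 3 hypertension libraries lay above the 3 control libraries for 11 of the 16, against 9.02% of all genes, and the median log2 fold change was 0.45. *Ube2l6*, the most abundant of those at an unadjusted p under 0.05 after *Mkrn1*, is a conjugating enzyme that partners with the interferon-induced modifier ISG15 and is strongly expressed in erythroblasts. It was measured at 770, 644 and 724 CPM against 1137, 1008 and 1329 CPM (0.70 ± 0.21, unadjusted p = 0.0052). *Mkrn1*, a ubiquitin ligase, stood at 936, 849 and 1036 CPM against 1358, 1262 and 1450 CPM, and *Ranbp10*, which organizes microtubules in blood cells, at 159, 152 and 174 CPM against 240, 228 and 324 CPM. *Bnip3l* (NIX), the receptor that directs mitochondria of reticulocytes to autophagy, differed less but without overlap, 161, 151 and 166 CPM against 201, 203 and 228 CPM (0.40 ± 0.15, unadjusted p = 0.0199). *Trim10* and *Ube2h*, further ubiquitin enzymes of erythroblasts, had log2 fold changes of 0.50 and 0.64. *Rac2*, a GTPase that neutrophils also express, was the only member of the list with all hypertension libraries below all controls (2134, 2102 and 2094 CPM against 1661, 1788 and 1238 CPM, unadjusted p = 0.15). Without hypertension replicate 4, and likewise without control replicate 3, 13 of 16 members were higher and 6 had an unadjusted p under 0.05. The summed neutrophil markers were lower in the same libraries, as given above, and their part in these values was not tested.

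Components of the red cell membrane and its skeleton were higher for 16 of 21 tested genes (48.1% of all genes), with a median of 0.31. Of these, 6 had an unadjusted p under 0.05 (2.08% of all genes) and 10 did not overlap (9.02%). Besides *Epb41*, these included *Sptb* (beta spectrin), which stood at 138, 132 and 163 CPM against 187, 181 and 238 CPM. *Dmtn* (dematin), which bundles actin at the spectrin junction, ranged from 70.6 to 95.4 CPM in the controls and stood at 99.3, 115 and 211 CPM in hypertension, so that replicate 4 carried much of its log2 fold change of 0.78 ± 0.27. *Gypc* (glycophorin C) and *Kel* (the Kell protein) had log2 fold changes of 0.45 and 0.43, the latter with overlap between groups. *Rhd*, the most abundant membrane gene of the list, was separated between groups but did not reach the nominal threshold (1392, 1259 and 1501 CPM against 1994, 1908 and 1778 CPM, unadjusted p = 0.0569). Without hypertension replicate 4, 18 of 21 were higher but 1 gene, *Epb41*, had an unadjusted p under 0.05, and without control replicate 3 the count was 3.

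Genes of heme synthesis were higher for 16 of 17 tested (48.1% of all genes), with a median of 0.24. Of these, 5 had an unadjusted p under 0.05 (2.08% of all genes) and 8 did not overlap (9.02%). Without hypertension replicate 4, 3 had an unadjusted p under 0.05, and without control replicate 3, 14 of 17 were higher with a median of 0.15. *Fech* (ferrochelatase), which inserts iron into protoporphyrin in the last step of the pathway, was measured at 1377, 1394 and 2029 CPM against 2926, 2543 and 2489 CPM (log2 fold change 0.73 ± 0.22, unadjusted p = 0.00513). *Alad*, the enzyme of the second step, stood at 487, 409 and 486 CPM against 671, 611 and 730 CPM (0.54 ± 0.17). *Glrx5*, needed for iron-sulfur clusters, stood at 1011, 815 and 889 CPM against 1314, 1253 and 1826 CPM. The mitochondrial carriers *Slc25a39* and *Slc25a37* (mitoferrin-1) had log2 fold changes of 0.49 and 0.50. In contrast, *Alas2*, the erythroid enzyme that sets the rate of the pathway, overlapped between groups (566, 392 and 663 CPM against 693, 608 and 610 CPM, 0.24 ± 0.30, unadjusted p = 0.438). *Cpox*, the coproporphyrinogen oxidase, was separated (609, 559 and 666 CPM against 702, 763 and 812 CPM) with an unadjusted p of 0.235.

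**Figure D3:**
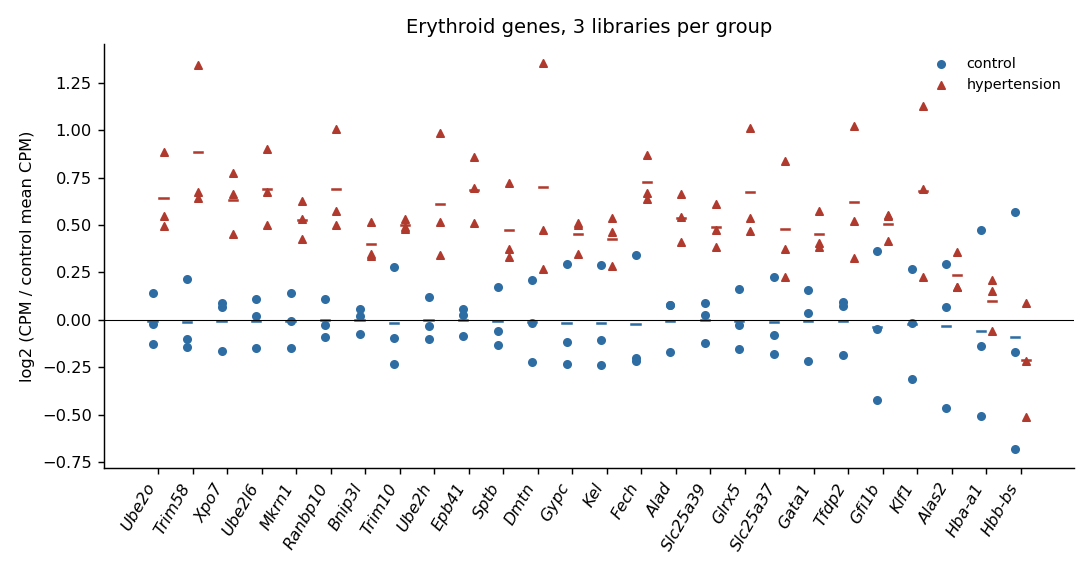
Log2 of CPM over the control mean (y axis) for erythroid genes, with 3 control libraries (circles), 3 hypertension libraries (triangles) and a short line at each group's mean. Hypertension libraries lay above the controls for most remodeling, membrane and heme genes, while *Alas2*, *Hba-a1* and *Hbb-bs* at the right overlapped.

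Transcription factors of the lineage were higher for 15 of 17 genes (48.1% of all genes), with a median of 0.30. Of these, 4 had an unadjusted p under 0.05 (2.08% of all genes) and 6 did not overlap (9.02%). Without hypertension replicate 4, and likewise without control replicate 3, 2 had an unadjusted p under 0.05. *Gata1*, the master regulator of erythroid genes, stood at 170, 142 and 184 CPM against 219, 216 and 246 CPM (0.46 ± 0.14, unadjusted p = 0.00743), and it kept an unadjusted p under 0.05 in each alternative in which it was tested. *Tfdp2*, an E2F partner, stood at 145, 121 and 147 CPM against 198, 173 and 279 CPM. *Gfi1b*, a repressor required for erythroid and platelet development, stood at 111, 85.5 and 147 CPM against 153, 168 and 167 CPM. *Klf1*, the activator of adult beta-globin, had the largest range, 464, 569 and 694 CPM against 673, 930 and 1256 CPM, with overlap of 1 hypertension library (0.73 ± 0.31, unadjusted p = 0.0374). *Nfe2* and *Zbtb7a* overlapped as well, with log2 fold changes of 0.21 and 0.69. *Hemgn*, an erythroid nuclear protein of the marker list, stood at 349, 302 and 426 CPM against 456, 453 and 638 CPM (0.52 ± 0.19).

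Globins overlapped between groups. The tested globin genes, 6 in number, comprised 4 higher and 2 lower with a median of 0.13, none at an unadjusted p under 0.05 and none separated. The median was 0.40 without control replicate 2 and -0.10 without control replicate 3. *Hba-a1* was measured at 2593, 1312 and 1695 CPM against 2160, 1789 and 2076 CPM, and *Hbb-bs* at 7086, 2977 and 4248 CPM against 5079, 4098 and 3348 CPM. Control replicate 2 held the highest and control replicate 3 the lowest values of both genes, a range within 1 group that exceeded the difference between groups. *Hba-a1* with *Hba-a2* and *Hbb-bs* with *Hbb-bt* are near-identical copies, so that reads may be split between them. The summed erythroid marker list overlapped between groups too (19847 to 32973 CPM in the controls, 21293 to 28887 CPM in hypertension). With the log2 sum of that list as a covariate, 724 genes were higher and 547 lower at an unadjusted p under 0.05, and the medians of the remodeling and heme lists were 0.45 and 0.27. Abundant genes such as globins weigh heavily in this sum. The part of erythroid cell content in the list values was not tested.

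Iron handling and energy genes were mixed. Of 13 genes of erythroid iron uptake and storage, 7 were higher (48.1% of all genes) and 2 of these had an unadjusted p under 0.05 (2.08%). Without overlap, 3 lay above the controls (9.02% of all genes) and 1 below (7.81%). *Tfr2*, a transferrin receptor that associates with the erythropoietin receptor, stood at 32.7, 31.7 and 46.0 CPM against 48.0, 46.6 and 56.8 CPM (0.45 ± 0.17), and *Slc11a2* (DMT1, which moves iron out of endosomes) overlapped (0.47 ± 0.22, unadjusted p = 0.0461). *Tfrc*, the main transferrin receptor, overlapped at 264, 284 and 385 CPM against 344, 412 and 539 CPM. *Slc40a1* (ferroportin), the iron exporter of macrophages and erythroblasts, was separated at 592, 666 and 821 CPM against 1103, 852 and 952 CPM (unadjusted p = 0.1). *Fth1*, the ferritin heavy chain, was low in hypertension replicate 4 alone (3873, 2010 and 2671 CPM against 2499, 1984 and 912 CPM). Of 15 metabolic genes, 12 were higher, led by the amino acid carrier *Slc38a5* (167, 144 and 208 CPM against 252, 239 and 255 CPM, 0.52 ± 0.16) and *Aldh1a1*, a retinaldehyde dehydrogenase (0.48 ± 0.19).

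In erythropoietin signaling, 5 of 12 genes were higher. *Bcl2l1* (Bcl-xL), the survival gene that erythropoietin induces in late erythroblasts, had the largest fold change of the list, 245, 234 and 256 CPM against 405, 407 and 943 CPM (log2 fold change 1.26 ± 0.43, unadjusted p = 0.0114). Without hypertension replicate 4 its log2 fold change was 0.73, with an unadjusted p of 0.09. *Stat5a*, a signal transducer of the receptor, was lower (25.5, 26.0 and 30.1 CPM against 20.9, 21.9 and 21.5 CPM, -0.34 ± 0.15). *Epor*, the receptor itself, overlapped at 73.1, 58.0 and 82.8 CPM against 79.4, 75.1 and 77.6 CPM.

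Promoters of the erythroid members were read to show what they share in sequence, using the 250 bases upstream of each RefSeq start site (GRCm38.p6). Searched on both strands were the GATA-type hexamers AGATAA and TGATAA and the KLF-type octamer CCACACCC. Of 71 tested members of the remodeling, membrane, heme and transcription lists, 54 matched by symbol, and 17 of these (31.5%) had a GATA-type match in at least 1 window, compared with 18.8% of the 27025 symbols in the table. Counted by window, the shares were 23% of 74 and 16.6% of 32851. The octamer was found upstream of 1 of the 54 genes (1.85%) and of 3.68% of all symbols. Of the 24 members that were higher with an unadjusted p under 0.05, 15 matched by symbol and 5 of these (33.3%) had a GATA-type match. This share was close to the 31.5% of all matched members. Shown are 4 of the 5 with a match, each with a single start site in the table. Capitals mark the hexamers, all sequences run 5′ to 3′ on the gene's strand and end at the base before the start site.
Gfi1b, chr2:28621983-28622232, minus strand: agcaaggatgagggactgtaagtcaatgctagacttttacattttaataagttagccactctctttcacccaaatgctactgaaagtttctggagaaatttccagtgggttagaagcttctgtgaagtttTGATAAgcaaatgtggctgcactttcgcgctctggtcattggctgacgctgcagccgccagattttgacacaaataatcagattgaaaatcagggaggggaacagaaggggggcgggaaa
Trim10, chr17:36869324-36869573, plus strand: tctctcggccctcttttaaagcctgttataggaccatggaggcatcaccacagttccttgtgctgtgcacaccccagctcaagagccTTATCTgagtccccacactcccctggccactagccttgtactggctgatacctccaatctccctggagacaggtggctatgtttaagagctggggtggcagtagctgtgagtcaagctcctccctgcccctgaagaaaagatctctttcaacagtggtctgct
Klf1, chr8:84901732-84901981, plus strand: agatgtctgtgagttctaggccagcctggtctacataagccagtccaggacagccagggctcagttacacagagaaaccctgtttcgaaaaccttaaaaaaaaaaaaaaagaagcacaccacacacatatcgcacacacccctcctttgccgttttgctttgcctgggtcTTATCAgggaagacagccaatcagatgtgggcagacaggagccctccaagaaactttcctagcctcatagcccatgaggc
Kel, chr6:41704326-41704575, minus strand: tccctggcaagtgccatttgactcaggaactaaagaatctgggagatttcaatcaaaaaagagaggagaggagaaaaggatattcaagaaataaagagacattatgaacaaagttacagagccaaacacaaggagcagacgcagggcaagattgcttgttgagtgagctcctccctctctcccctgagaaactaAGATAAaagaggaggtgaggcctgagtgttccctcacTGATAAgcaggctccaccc
The hexamer began 120 bases upstream of the start in *Gfi1b*, 163 in *Trim10* and 80 in *Klf1*, and *Kel* held a pair at 56 and 19. *Epb41* and *Trim58*, which had smaller p-values, held neither of these hexamers in their windows. Only AGATAA and TGATAA were searched, so that other GATA-type sequences may be present and are not counted in the shares.

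Hypertension was also set against the mean of atherosclerosis and MI, a comparison that uses no control library. It shares the 3 hypertension libraries with the comparison above, so that lists high in these libraries tend to be high in both, and it is no independent evidence. Remodeling genes were higher for 12 of 16 with a median of 0.23, membrane genes for 15 of 21 with 0.19, heme genes for 14 of 17 with 0.20 (log2 scale), and transcription factors for 14 of 17 with 0.14, where all genes tested had a median of -0.02. Other erythroid lists differed from these. Globins were higher for 2 of 6 (median -0.24), iron genes for 6 of 13 (-0.12), erythropoietin signaling genes for 2 of 12 (-0.10), metabolic genes for 10 of 15 (0.12) and the erythroid markers for 11 of 20 (0.08). At an unadjusted p under 0.05, 4, 4, 4 and 3 members of the remodeling, membrane, heme and transcription lists were higher, against 2.41% of all genes. The summed CPM of each of these lists overlapped between hypertension and atherosclerosis, whereas all MI libraries lay below all hypertension libraries. Remodeling sums were 6414, 6499 and 6509 CPM in hypertension, 5580, 6785 and 6448 CPM in atherosclerosis and 5088, 6210 and 5128 CPM after MI. Heme sums were 9221, 8562 and 9517 CPM, 7204, 8645 and 8194 CPM, and 6981, 7123 and 5697 CPM in the same order. *Trim58* stood at 29.4, 33.8 and 48.5 CPM in atherosclerosis and 24.3, 30.1 and 23.2 CPM after MI, a difference of 0.78 ± 0.19 on the log2 scale from the values in hypertension. *Epb41* differed less from these groups (0.25 ± 0.13, unadjusted p = 0.0798), and atherosclerosis libraries reached 401, 345 and 329 CPM. The only gene called was *Apoe* (adjusted p = 0.00669, 1 higher, 0.00625% of genes tested, and 0 lower), which the atherosclerosis mice lack by design. With *Apoe* as the only call by the quasi-likelihood test, 385 genes were higher and 447 (2.79%) lower at an unadjusted p under 0.05, and the likelihood-ratio test and DESeq2 called 4 and 3 higher and 6 and 3 lower.

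The receptor of the infused peptide was next examined. *Agtr1a*, the main type 1 Ang-II receptor of the mouse, was measured at 12.5, 9.48 and 13.1 CPM in the controls and 18.1, 15.5 and 15.3 CPM in hypertension, so that each hypertension library exceeded each control. The log2 fold change was 0.48 ± 0.19 (unadjusted p = 0.0225), and it had an unadjusted p of 0.11 without control replicate 3 and 0.0881 without hypertension replicate 2. Atherosclerosis libraries stood at 11.3, 14.6 and 11.5 CPM and MI libraries at 8.94, 10.1 and 7.88 CPM, below each hypertension library (difference 0.62 ± 0.16 on the log2 scale, unadjusted p = 0.00157, adjusted p = 0.892, edgeR). *Agtr1b* and *Agtr2* had 0 counts in the 6 libraries, which allows up to 0.116 to 0.168 CPM per library. *Ace*, which makes Ang-II, overlapped at 1.46, 1.84 and 2.72 CPM against 2.27, 2.76 and 3.10 CPM. *Agt*, the precursor, was raised in hypertension replicate 2 alone (7.35 CPM, against 2.20 to 2.99 CPM in the other 5 libraries). *Ren1*, which encodes renin, was too low to be tested, at 10, 8 and 7 counts against 3, 3 and 5. On CPM all its hypertension libraries lay below all controls, an order that rests on few reads. Of the 17 tested genes of the renin-angiotensin list, 4 were higher and 13 lower, and *Agtr1a* was the only one at an unadjusted p under 0.05.

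Vasomotor genes were mostly lower and adrenergic genes mostly higher. Of 21 tested nitric oxide and vasoactive genes, 17 were lower (51.9% of all genes) with a median of -0.16, 1 of them at an unadjusted p under 0.05 (1.63%). That gene, *Ednrb* (the type B endothelin receptor), rested on control replicate 4, at 1.74, 1.46 and 3.92 CPM against 1.23, 1.62 and 0.901 CPM. *Nos3*, the endothelial nitric oxide synthase, likewise had its highest value in control replicate 4 (0.392, 0.433 and 1.67 CPM against 0.499, 0.394 and 0.451 CPM). *Edn1*, the vasoconstrictor endothelin-1, was too low to be tested, at 5, 2 and 12 counts against 5, 4 and 3. Of 7 tested adrenergic genes, 5 were higher (48.1% of all genes) and 3 were so without overlap (9.02%). *Arrb1* (beta-arrestin 1, which desensitizes these receptors) was separated at 85.1, 81.5 and 92.2 CPM against 105, 104 and 119 CPM (0.34 ± 0.14, unadjusted p = 0.0334).

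Endothelial markers were lower for 20 of 26 genes, none at an unadjusted p under 0.05 and 2 without overlap, where 51.9% of all genes were lower. Their median of -0.28 turned to 0.09 without control replicate 4, which held the highest endothelial sum, and 17 of 26 were then higher. *Plvap*, the diaphragm protein of fenestrated endothelium, followed this order, at 50.1, 35.1 and 84.7 CPM against 42.8, 42.0 and 18.2 CPM. *Kdr* (VEGF receptor 2) stood at 9.08, 6.28 and 13.1 CPM against 8.76, 7.93 and 6.91 CPM, and *Pecam1* (CD31) at 21, 18.7 and 23 CPM against 19.2, 17.2 and 19.6 CPM. *Vwf*, which megakaryocytes express as well, was higher by 0.34 ± 0.35.

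**Figure D4:**
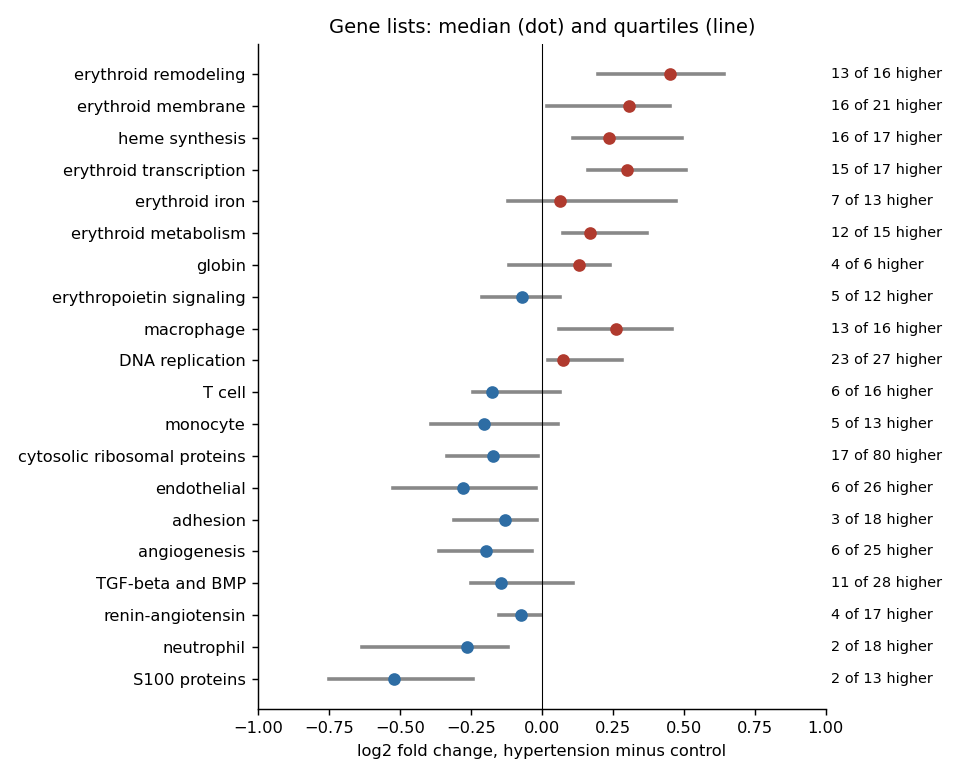
Median (dot) and quartiles (line) of the log2 fold change, hypertension minus control, over the tested members of 20 gene lists, with the number of members higher at the right. The erythroid remodeling list had the highest median (0.45) and the S100 list the lowest (-0.52).

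Markers of neutrophils and their precursors were lower for 16 of 18 genes, 8 of them with all hypertension libraries below all controls (7.81% of all genes) and 1 at an unadjusted p under 0.05 (1.63%). Their median was -0.26. *Prtn3* (proteinase 3), a primary granule enzyme of promyelocytes, stood at 1236, 791 and 722 CPM against 636, 523 and 355 CPM (-0.86 ± 0.36, unadjusted p = 0.0341). *Ltf* (lactoferrin), of secondary granules, stood at 8363, 6428 and 8182 CPM against 5057, 4562 and 2738 CPM (unadjusted p = 0.0541). *Ngp*, the most abundant member, stood at 33906, 27839 and 24430 CPM against 23183, 22302 and 12764 CPM, whereas *Elane* (neutrophil elastase) overlapped at 9934, 7296 and 5730 CPM against 7524, 6297 and 6688 CPM. *Lcn2* (neutrophil gelatinase-associated lipocalin) was separated with a log2 fold change of -0.66. In hypertension replicate 4, *Prtn3*, *Ltf* and *Ngp* were lowest of all 6 libraries. Without it 17 of 18 members were lower, none at an unadjusted p under 0.05, and the median was -0.32.

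The S100 family, small calcium-binding proteins of myeloid and stromal cells, was lower for 11 of 13 tested genes by symbol prefix (51.9% of all genes), with a median of -0.52. Of these, 6 did not overlap (7.81% of all genes) and 2 had an unadjusted p under 0.05 (1.63%). *S100a8* and *S100a9*, which also belong to the neutrophil list, form the calprotectin dimer of neutrophils. *S100a9* was measured at 7844, 4815 and 4566 CPM against 3593, 3401 and 2083 CPM, and *S100a8* at 5425, 3294 and 3349 CPM against 2803, 2486 and 1217 CPM. *S100a11* was lower by a larger step, 114, 73.4 and 82.5 CPM against 43.3, 47.3 and 26.5 CPM (-1.20 ± 0.52, unadjusted p = 0.0376). *S100a10*, the annexin A2 partner, stood at 73.9, 61.2 and 50.4 CPM against 44.9, 44.7 and 32.4 CPM (-0.60 ± 0.25), and *S100a6* at 164, 154 and 131 CPM against 109, 114 and 84.9 CPM. The summed neutrophil marker list moved with this family (59675 to 82228 CPM against 37988 to 54998 CPM), and its part in the S100 values was not tested. Without control replicate 2, and likewise without hypertension replicate 4, no member had an unadjusted p under 0.05.

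Monocyte markers were lower for 8 of 13 genes. *Ly6c2*, the surface marker of inflammatory monocytes, stood at 363, 276 and 257 CPM against 209, 209 and 147 CPM (-0.67 ± 0.30, unadjusted p = 0.0427). Macrophage markers went the other way, with 13 of 16 higher (48.1% of all genes) and a median of 0.26. Of these, 3 had an unadjusted p under 0.05 (2.08% of all genes) and 4 did not overlap (9.02%). *C1qc*, a chain of the complement initiator C1q that tissue macrophages secrete, was measured at 150, 140 and 148 CPM against 263, 195 and 199 CPM (0.59 ± 0.19, unadjusted p = 0.00874). *C1qa* stood at 36.0, 27.3 and 28.6 CPM against 46.2, 32.9 and 39.1 CPM, and *Cd5l*, a secreted macrophage protein of spleen, liver and marrow, at 11.5, 8.12 and 15.6 CPM against 24.9, 16.6 and 15.6 CPM, where the closest libraries were nearly equal. These values leaned on hypertension replicate 2. Without it 8 of 16 members were higher, none had an unadjusted p under 0.05, and the median was 0.00. Against atherosclerosis and MI, macrophage markers were lower for 12 of 16 (median -0.21).

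**Figure D5:**
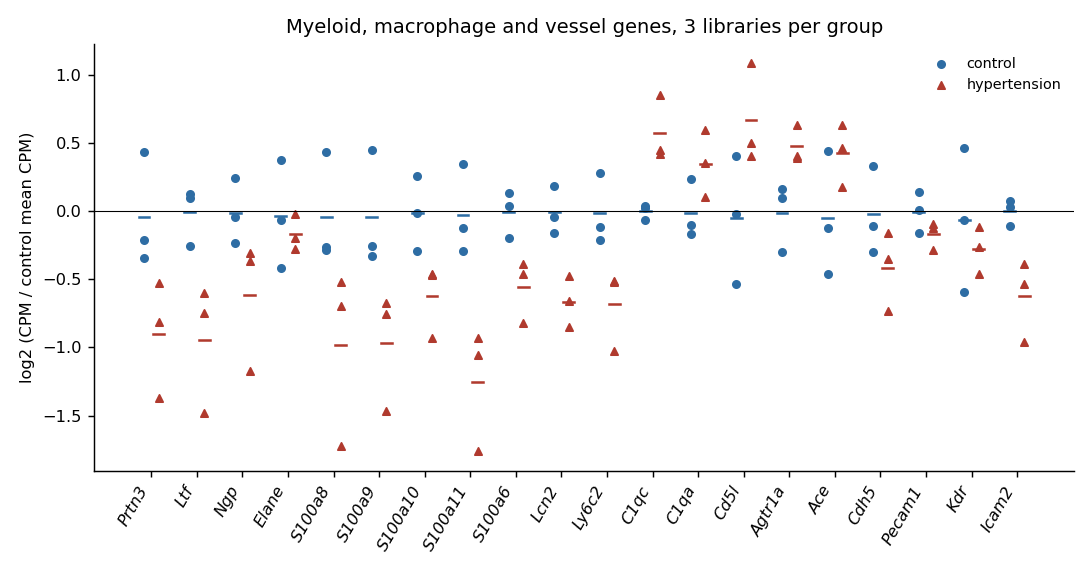
Log2 of CPM over the control mean (y axis) for myeloid, macrophage and vessel genes, with 3 control libraries (circles), 3 hypertension libraries (triangles) and a short line at each group's mean. Except for *Elane*, granule and S100 genes lay below the controls, *C1qc* and *Agtr1a* above, and *Cdh5*, *Pecam1* and *Kdr* overlapped.

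Of the soluble mediators, chemokines were mixed (10 of 24 higher). *Cxcl13*, the B cell attractant, had 0, 3 and 1 counts in the controls and 15, 9 and 7 in hypertension, at most 0.681 CPM. *Ccl8*, a chemokine of macrophages, overlapped at 1.29, 0.379 and 0.698 CPM against 2.09, 2.98 and 0.851 CPM. Cytokines were lower for 13 of 15, while *Il6* was higher, at 2.07, 1.79 and 1.75 CPM against 2.09, 3.68 and 3.66 CPM (0.75 ± 0.32, unadjusted p = 0.0358), with its replicate 2 close to the controls. Among 19 complement genes, the C1q chains and *C4b* (0.79 ± 0.32, with overlap) were higher, and *C5ar1*, the anaphylatoxin receptor of neutrophils, was separated below the controls (268, 343 and 328 CPM against 175, 253 and 148 CPM, unadjusted p = 0.0966). Of 28 interferon-stimulated genes, 17 were lower, and *Oas1a*, a sensor of double-stranded RNA, was the only one at an unadjusted p under 0.05 (11.9, 14.2 and 14.2 CPM against 10.4, 8.50 and 6.36 CPM).

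Genes of vessel growth and adhesion were counted next. TGF-beta and BMP genes were lower for 17 of 28 (51.9% of all genes), 7 of them without overlap (7.81%) and 2 at an unadjusted p under 0.05 (1.63%). *Bmp7*, a BMP ligand, stood at 0.673, 0.541 and 0.970 CPM against 0.318, 0.219 and 0.200 CPM, close to the floor. *Skil*, a repressor of SMAD signaling, stood at 24.8, 32.5 and 28.7 CPM against 22.7, 22.9 and 22.2 CPM, and *Id2*, a BMP target, at 112, 78.1 and 88.2 CPM against 76.2, 72.2 and 43.1 CPM. Angiogenesis genes were lower for 19 of 25 (51.9% of all genes), led by *Tfpi2*, a protease inhibitor (1.91, 1.41 and 1.12 CPM against 0.908, 0.744 and 0.501 CPM), and *Hes1*, a Notch target (14.0, 8.93 and 10.6 CPM against 8.90, 8.14 and 5.71 CPM). Their median of -0.20 turned to 0.04 without control replicate 4, and 15 of 25 were then higher. Adhesion genes were lower for 15 of 18 (51.9% of all genes), 4 of them without overlap (7.81%) and 2 at an unadjusted p under 0.05 (1.63%). Without control replicate 4 they were lower for 11 of 18 with 0 at that threshold. *Icam2*, a ligand of LFA-1, was separated at 33.8, 30.8 and 34.8 CPM against 22.9, 25.3 and 17.1 CPM (-0.61 ± 0.24, unadjusted p = 0.0227). The lists share genes with leukocytes, whose markers are given above, and their part was not tested.

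In lymphoid, mast cell and stress lists few genes reached the nominal threshold. T cell markers were lower for 10 of 16, and *Cd3e*, a chain of the T cell receptor complex, stood at 1.63, 2.17 and 2.29 CPM against 1.45, 1.09 and 1.00 CPM. *Gata2*, a factor of stem, mast and basophil cells, was separated above the controls (20.2, 18.4 and 22.1 CPM against 26.5, 25.4 and 30.9 CPM, 0.45 ± 0.17). *Prss34*, a protease of basophils, was also separated but did not reach the nominal threshold (2148, 2809 and 1686 CPM against 3578, 3222 and 4143 CPM, unadjusted p = 0.12). Basophil or mast markers were higher for 7 and lower for 7 of 14 genes, and 4 were separated above the controls (9.02% of all genes). *Prss34* made up most of the summed CPM of this list in each of the 6 libraries. The hypoxia target *Car9* (carbonic anhydrase 9) was lower at 8.86, 7.96 and 8.03 CPM against 6.58, 5.17 and 3.96 CPM, within a list that was lower for 16 of 20 (51.9% of all genes). *Dnajb1*, a co-chaperone of HSP70, was higher at 186, 257 and 240 CPM against 271, 344 and 438 CPM (0.62 ± 0.25).

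DNA replication genes were higher for 23 of 27 (48.1% of all genes), but with a median of 0.07. Of these, 2 had an unadjusted p under 0.05 (2.08% of all genes) and 5 did not overlap (9.02%). *Tyms* (thymidylate synthase) stood at 294, 275 and 285 CPM against 369, 365 and 555 CPM, and *Rfc4*, a subunit of the clamp loader, at 255, 242 and 252 CPM against 353, 338 and 524 CPM. *Rrm2*, the most abundant member, overlapped (2062, 1900 and 2443 CPM against 2630, 2510 and 2279 CPM). The direction of the list rested on control replicate 3, since 14 of 27 were higher without it. Cytosolic ribosomal protein genes were lower for 63 of 80 with a median of -0.17, and this rested on control replicate 2, without which 41 of 81 were higher and the median was 0.00. *Rpl12* was the only ribosomal gene at an unadjusted p under 0.05, and it was higher (6.56, 6.23 and 6.44 CPM against 8.58, 8.36 and 12.6 CPM).

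Variable genes of the immunoglobulins varied more between mice of a group than other genes did. For the 156 tested kappa and heavy V genes of mean level similar to 10720 other genes, the median SD within groups was 1.26 on a log2 scale with 0.1 CPM added, against 0.287 for those other genes. Kappa V genes were higher for 33 and lower for 50 of 83, with 5 and 6 at an unadjusted p under 0.05. Heavy V genes were higher for 30 and lower for 43 of 73, with 2 and 9 at that threshold. Of the 159 genes annotated as immunoglobulin V genes, 4.4% were higher and 9.43% lower at that threshold, against 2.08% and 1.63% of all genes. These balances turned on single libraries. Without control replicate 3, 51 of 88 kappa V genes were higher (median 0.41, against -0.32 with all libraries), and without control replicate 2, 38 of 75 heavy V genes were higher (median 0.08, against -0.29), with 5 higher and 5 lower at an unadjusted p under 0.05. *Igkv8-27* was the most regular of them, at 61.3, 35.4 and 46.0 CPM against 15.6, 9.20 and 21.8 CPM (log2 fold change -1.62 ± 0.45, unadjusted p = 0.00342), and *Igkv14-100* stood at 4.48, 5.09 and 8.50 CPM against 0.772, 0.832 and 2.00 CPM. *Igkv12-38* was nearly absent from the controls and from hypertension replicate 4 (0 CPM) but reached 2.54 and 9.33 CPM in the other hypertension mice. *Igkv3-5* stood at 73.8 CPM in hypertension replicate 2 and at 0.451 to 2.11 CPM in the other 5 libraries, and *Ighv9-4* at 64.5 CPM in control replicate 2 and at most 2.50 CPM elsewhere. *Ighv5-2* was found at 12 CPM in control replicate 4 alone, the others lying at or below 0.363 CPM. The most abundant heavy V gene of each library, which was not the same gene in every mouse, took 33.6% (*Ighv1-9*), 24.5% (*Ighv6-3*) and 44.6% (*Ighv4-1*) of the summed heavy V counts in the hypertension libraries and 15.9% (*Ighv9-4*), 20.9% (*Ighv4-1*) and 18.3% (*Ighv4-1*) in the controls. V genes are close relatives, so that reads may be split among them.

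Finally, the genes too low to be tested were counted. Of 39422 genes that the filter removed, 23180 had no count in the 6 libraries and 3511 had at least 10 counts summed over the 3 libraries of a group. A strict on or off pattern, with each library of a group above 0, at least 10 counts in all and 0 counts in the other group, was met by 3 genes. The lincRNA 2700046A07Rik had 1, 1 and 8 counts in hypertension and 0 in the controls. *Ppil6* had 5, 2 and 4 counts and the pseudogene Gm4076 had 6, 2 and 2 counts in the controls and 0 in hypertension. The mean CPM of 2700046A07Rik in hypertension was 1.10 times the floor of 3 counts per library. For *Ppil6* and Gm4076 the control means were 1.30 and 1.25 times the floor. In each of these genes some libraries of that group held under 3 counts, so that no lower bound on the fold follows.

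With the zero no longer required, 200 of the 3511 untested genes with at least 10 counts in a group had all hypertension libraries above all controls and 255 had them below. Among the genes tested, these shares were 9.02% and 7.81%. The largest totals among the higher ones belonged to kappa V genes, *Igkv8-18* (1, 1 and 1 counts against 5, 2 and 171) and *Igkv4-51* (2, 2 and 1 counts against 47, 4 and 4), followed by *Capn11*, a calpain protease, with 0, 0 and 2 counts against 40, 9 and 5. In these 3 genes a single hypertension mouse held most of the counts. Gm9118 (7, 5 and 8 counts against 16, 9 and 10) and 1700019D03Rik (2, 3 and 2 against 11, 7 and 16) were more even. Among the lower ones, *Ccn4* (WISP1, a matricellular protein of bone) had 5, 12 and 19 counts against 6, 6 and 0, and *Greb1l* 13, 10 and 11 counts against 5, 6 and 2. Gm22121 had 10, 9 and 16 counts against 6, 5 and 6, 4632428C04Rik 7, 8 and 19 against 5, 4 and 2, and Gm9970 9, 9 and 14 against 4, 11 and 4. The order of groups was taken on CPM, and at these counts a difference of a few reads decides it.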

How the data were processed

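RNA was sequenced from 12 libraries as polyA-selected, strand-specific, single-end reads. Per the labels and the study's methods, the authors aligned reads to GRCm38.p6 with STAR 2.7.3a and deposited its raw read counts per Ensembl gene, with no normalization, in 1 table. Symbols and classes came from GENCODE M21 for 55240 of 55421 genes. Genes were kept by edgeR's filterByExpr (15999 genes), and the libraries were scaled by TMM factors. CPM are on these scaled library sizes. The 4 groups were fitted together with edgeR 4.0.16 (glmQLFit and glmQLFTest, R 4.3.3, 8 residual degrees of freedom) and hypertension was contrasted with controls and with the mean of atherosclerosis and MI, with Benjamini-Hochberg adjustment over all genes tested and a threshold of 0.05. The study itself names edgeR's likelihood-ratio test, which was run as an alternative, as was DESeq2 1.42.0. The SE is the absolute log2 fold change divided by the root of the F statistic. Other scalings, filters, covariates, a replicate block and the omission of each library were tried as alternatives. Exact permutation tests used scipy 1.17.1. The fit was tested on simulated counts.

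The members and the 53 gene lists (46 written out and 7 by symbol prefix) were chosen with earlier results of these data known, so that no list carries a p of its own. Named genes were the 12 of smallest p in each direction, in each list the 3 most abundant members and those with an unadjusted p under 0.05, receptors of the peptide, gate genes and erythroid defining genes, the 5 low-count genes of most counts in each direction, and genes called against the other diseases. A few further genes, the 3 with a strict on or off pattern among them, were chosen after their values were seen. The floor of 3 counts covers counting error only, and reads were not counted by molecular identifiers. Libraries were 1 per mouse, and p-values measure the spread between these mice. Some genes that this rule names are not reported here.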

Additional observations from a re-analysis of the deposited data

Results flagged for a closer look

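*Apoe*, which encodes apolipoprotein E, was the only gene whose level in hypertension differed from the mean of the other disease groups by the test of that difference itself. The log2 fold change of hypertension minus the mean of atherosclerosis and MI was 2.792 ± 0.302 (SE, adjusted p = 0.00669, edgeR's quasi-likelihood test). *Apoe* stood at 905, 713 and 450 CPM in hypertension replicates 2, 3 and 4, at 1503, 744 and 550 CPM after MI, and at 9.78, 7.28 and 14.8 CPM in the atherosclerosis mice, in which the gene is deleted. The controls stood at 731, 717 and 894 CPM and overlapped with hypertension (log2 fold change -0.18 ± 0.36, unadjusted p = 0.625). The low level in the *Apoe*-/- libraries checks their labels, and the MI values lay around those of hypertension.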

How the results depend on the processing

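With 3 mice a group, no gene was called under any test, scaling, covariate, the replicate block or omission of 1 library. The exception was the filter of at least 1 count, under which 115 genes were called higher and 55 lower (942 and 637 at an unadjusted p under 0.05); there the prior degrees of freedom became infinite, against 5.08. Counts at an unadjusted p under 0.05 (333 and 261) were 894 and 644 with only the 6 libraries and 724 and 547 with the erythroid list as covariate, and the cause was not tested. The replicate block gave 275 and 213. Deviations of same-numbered libraries had correlations of 0.195, 0.071 and -0.082, so the numbers were not taken to pair mice. Leaving out 1 library gave 136 to 343 higher and 102 to 268 lower at that threshold, lowest without hypertension replicate 4, and 1979 to 2527 and 1756 to 2485 genes not overlapping, since fewer libraries overlap less often. Against the other diseases (1 higher, 0 lower), the likelihood-ratio test called 4 and 6, DESeq2 3 and 3, the filter of at least 1 count 59 and 124, an adjusted p under 0.1 1 and 1, and omission of a library 0 to 2 (0 without hypertension replicate 2, 2 without atherosclerosis replicate 2) and 0 to 1. List medians without 1 library ranged from 0.378 to 0.524 for erythroid remodeling, 0.241 to 0.327 for membrane, 0.152 to 0.324 for heme synthesis, -0.097 to 0.395 for globin, -0.389 to -0.204 for neutrophil and -0.446 to 0.093 for endothelial genes. With the endothelial list as covariate, heme synthesis had 0.320 and the endothelial list itself 0.036. Signs of single genes turned on 1 library for *Ighv9-4* (-7.795 to 0.121), *Ighv5-2* (-4.389 to 0.089), *Igkv3-5* (-0.508 to 5.003), *Nos3* (-1.252 to 0.123), *Agt* (-0.139 to 0.916), *Kdr* (-0.501 to 0.041), *Elane* (-0.328 to 0.069), *Epor* (-0.014 to 0.244), *Hba-a1* (-0.097 to 0.416), *Hbb-bs* (-0.443 to 0.208), *Apoe* (-0.424 to 0.056) and *Car2* (-0.377 to 0.018). Values near the floor of 3 counts rest on few reads.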
